A study of Caenorhabditis elegans with 8 samples.

Results

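The abu family of Caenorhabditis elegans was followed through 8 rows of a count table of 45461 rows. They were chosen by sequence name: abu-1 (AC3.3), pqn-5 (C03A7.4), abu-6 (C03A7.7), abu-7 (C03A7.8), abu-8 (C03A7.14), abu-10 (F35A5.3), abu-11 (T01D1.6), and the non-coding row AC3.16, which lies opposite abu-1. The annotation used here calls C03A7.4 abu-15, and the older name pqn-5 is kept below. RNA came from L2 larvae of the label N2jrIs2[Prpl-17::Grx1-roGFP2], in which the rpl-17 promoter drives a fluorescent sensor of the glutathione redox state. All worms carried the sensor, and each library came from a pool of about 10000 worms. They were divided into an oxidized and a reduced population, each with 4 libraries numbered 1, 2, 3 and 5, and the comparison asked which transcripts differ between larvae of like age and unlike redox state.

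The pharynx, the feeding organ of the worm, is lined by a cuticle that holds chitin and is shed and rebuilt at each moult. Proteins of the abu and pqn families are cysteine-rich and rich in glutamine and asparagine, and several of them are needed to build this lining. The abu genes take their name, activated in blocked unfolded protein response, from their induction by stress of the endoplasmic reticulum in worms that lack a working response, and overexpression of abu-11 has been reported to lengthen worm life.

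Libraries held 635990 to 1089259 counts over 5058 to 7548 rows with at least 1 count. Levels are given as CPM, counts per 1e6 counts of a library whose size was adjusted by TMM, a correction for library composition. A floor of 3 counts stood for 2.75 to 4.72 CPM, covering counting error only. Reduced replicate 1 stood apart for most of the family, so fold changes of the tested family rows are given with and without it. Median fold changes of gene lists are given only with it. Over 2315 tested rows the median of its level over the median of the other 7 libraries was 0.991. It was the highest library in 18% of those rows, the largest such share of the 8 libraries, which ran from 7.17%. For replicate 5 one label gives the opposite redox state to the others, and values without it or with its labels exchanged are given below.

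The family lies at 4 places in the genome (WBcel235 coordinates from the Ensembl annotation; no source used here names the build behind the counts). A stretch of 36007 bases on chromosome V, from 5158602 to 5194608, holds pqn-5 on the plus strand and abu-6, abu-7 and abu-8 on the minus strand. The 6 other coding genes inside it had 7 counts in all 8 libraries together, against 748 for the 4 family rows. The abu-1 gene spans chromosome V 10380340 to 10381826, 615 bases from pqn-2, which runs the other way. The abu-10 gene spans chromosome X 3798182 to 3799741. The abu-11 gene spans chromosome II 192509 to 194558, and 2426 bases from it, in the other direction, starts the row of chs-2, the chitin synthase of the pharynx. Exons of pqn-5, abu-7, abu-8, abu-10 and abu-11 share no base with another annotated gene, whereas those of abu-1 and abu-6 do.

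Most of the coding rows were low, and abu-8 and abu-11 carried most of the family's counts. Per kilobase of exon, the median level over the 8 libraries was 44.0 CPM for abu-8, 27.8 for abu-11, 5.86 for pqn-5, 5.83 for abu-10 and 1.52 for abu-7, and it was 0 for abu-6 and abu-1. The abu-8 and abu-11 rows, next to each other in this order, overlapped in mean ± SD (n = 4 each). They stood at 42.2 ± 25.9 and 27.6 ± 13.3 CPM per kilobase in oxidized worms, and at 87.7 ± 86.8 and 61.8 ± 76.6 in reduced worms. Both come from the same libraries, so their SD also holds variation common to both rows. Library by library abu-8 was the higher except in oxidized replicate 3, at 28.6 against 32.4 CPM per kilobase. The pqn-5 and abu-10 rows overlapped too, at 9.15 ± 6.53 and 7.50 ± 7.42 in oxidized worms. In reduced worms they were at 16.5 ± 22.5 and 13.6 ± 19.2, and neither was the higher in every library. Paralogs of this family resemble each other, so how the authors' counting treated reads that fit several of them bears on each row, and was not tested.

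The abu-8 row, the highest coding row of the family, held 33.6, 58.3, 43.5 and 122 CPM in oxidized replicates 1, 2, 3 and 5, against 328, 96.0, 75.6 and 34.8 in reduced replicates 1, 2, 3 and 5. The groups overlapped: oxidized replicate 5 was above 3 of the 4 reduced libraries, and reduced replicate 5 was below 3 of the 4 oxidized ones. Means were 64.3 ± 39.5 CPM in oxidized and 134 ± 132 CPM in reduced worms (SD, n = 4 each). The log2 fold change of oxidized over reduced was −1.07 (SE 0.58), with an edgeR quasi-likelihood adjusted p = 0.999. Without reduced replicate 1 it was −0.16, with reduced worms then at 68.8 ± 31.2 CPM (n = 3).

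The abu-11 row held 25.2, 19.0, 41.9 and 57.0 CPM in the oxidized libraries, in the same order of replicates, against 228, 44.9, 29.9 and 17.4 CPM in the reduced ones. Reduced replicate 1 was 4.00 times the next highest library, oxidized replicate 5, while reduced replicate 5 was the lowest of all. Averages were 35.8 ± 17.2 CPM in oxidized and 80.0 ± 99.2 CPM in reduced worms (SD, n = 4 each). The log2 fold change was −1.17 (SE 0.68, edgeR adjusted p = 0.999), and it turned to 0.15 without reduced replicate 1.

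The pqn-5 row was low in 7 libraries. It held 5.60, 13.1, 4.84 and 22.5 CPM in oxidized worms, against 63.2, 5.22, 8.56 and 6.21 CPM in reduced worms. The abu-10 row did the same, with 7.47, 0, 8.06 and 22.5 CPM in oxidized and 53.6, 7.30, 7.13 and 1.24 CPM in reduced worms. In both rows oxidized replicate 5 came second to reduced replicate 1, by ratios of 2.81 for pqn-5 and 2.38 for abu-10. A share of 48.4% of the 95 counts of pqn-5 and 48.8% of the 80 counts of abu-10 came from reduced replicate 1.

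Reduced replicate 1 held 78.7% of the 47 counts of abu-7 and 90.0% of the 10 counts of abu-6, which lie next to each other. The abu-7 row had 0, 1, 0 and 2 counts in the oxidized libraries, against 37, 1, 3 and 3 counts in the reduced libraries. The abu-6 row had 0 counts in every oxidized library, against 9, 0, 0 and 1 counts in the reduced ones. Apart from reduced replicate 1, no library exceeded the floor of 3 counts in either row. At this depth those other libraries could show no difference between the groups. The abu-1 row had 1 count in all, in reduced replicate 3.

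**Figure D1:**
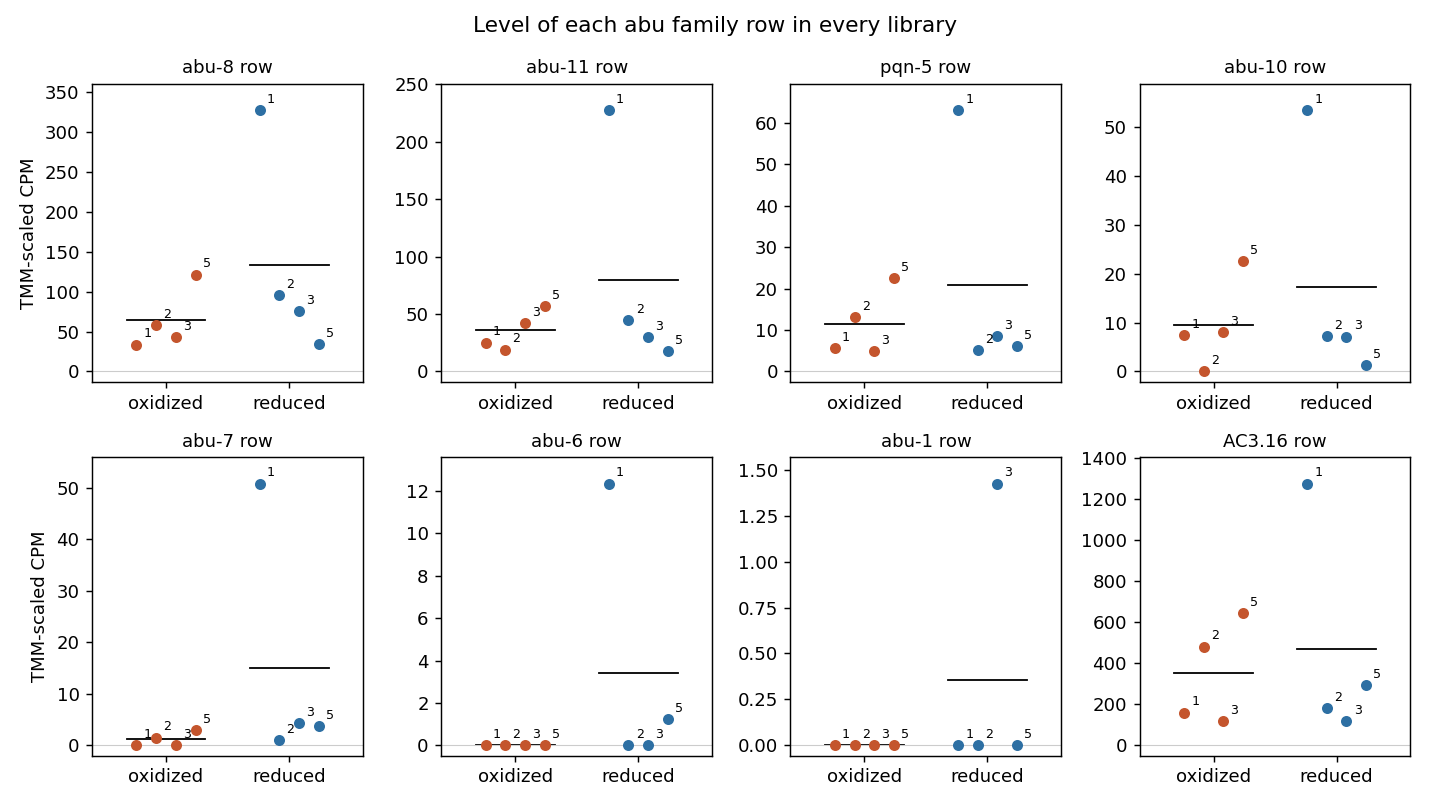
TMM-scaled CPM of each abu family row by group; every point is a library with its replicate number, the black line is the mean of the group (n = 4), and each panel has its own vertical scale. Reduced replicate 1 is the highest point in 7 of the 8 panels, and the other libraries of both groups overlap.

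Redox state was not associated with a called change in the family. Of the 8 rows, 3 passed the filter on low counts (abu-8, abu-11 and AC3.16), and 0 of these were called by edgeR at an adjusted p under 0.05, where 0.216% of all 2315 tested rows were. DESeq2 and limma voom also called 0 of the 3, against 0.389% and 0.13% of all rows, and edgeR without reduced replicate 1 called 0, against 0.591%. In none of the 3 did the groups separate, which they did in 3.02% of tested rows. None of the 3 rows had an unadjusted p under 0.05 (0.0772 for abu-8, 0.097 for abu-11, 0.482 for AC3.16), where 2.29% of tested rows did with lower and 2.98% with higher levels in oxidized worms. With the replicate number as a block 0 were called too, where 0.648% of all rows were. With no filter all 8 rows could be fitted: 0 were called, against 0.0757% of 13216 rows, and abu-7, abu-8 and abu-11 had an unadjusted p under 0.05, all lower in oxidized worms (0.0102, 0.0403 and 0.0479, edgeR adjusted p = 0.876 for each). Of all rows 1.54% did so in that direction and 2.16% in the other, and 78.7% of the abu-7 counts came from reduced replicate 1.

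The direction depended on the libraries used. Summed over the 7 coding rows, oxidized libraries held 71.9, 91.9, 98.4 and 227 CPM, against 736, 154, 127 and 64.6 CPM in reduced ones. The ratio of means, oxidized over reduced, was 0.452 with all libraries and 1.06 without reduced replicate 1. Within the June28 libraries (replicates 1 and 2) it was 0.184, and within those of July7 and August6 (replicates 3 and 5) it was 1.70. The value of 1.70 rests on replicate 5, the pair with conflicting labels: in replicate 3 the sum was lower in the oxidized library. For abu-8 the log2 fold change was −2.26 within June28 and 0.62 within the later dates, for abu-11 −2.60 and 1.08, and for AC3.16 −1.25 and 0.87. Each of these sets holds 2 libraries a group. Without both libraries of replicate 5 the log2 fold changes were −1.87 for abu-8, −1.80 for abu-11 and −1.02 for AC3.16, and with its labels exchanged they were −1.88, −1.81 and −1.08.

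**Figure D2:**
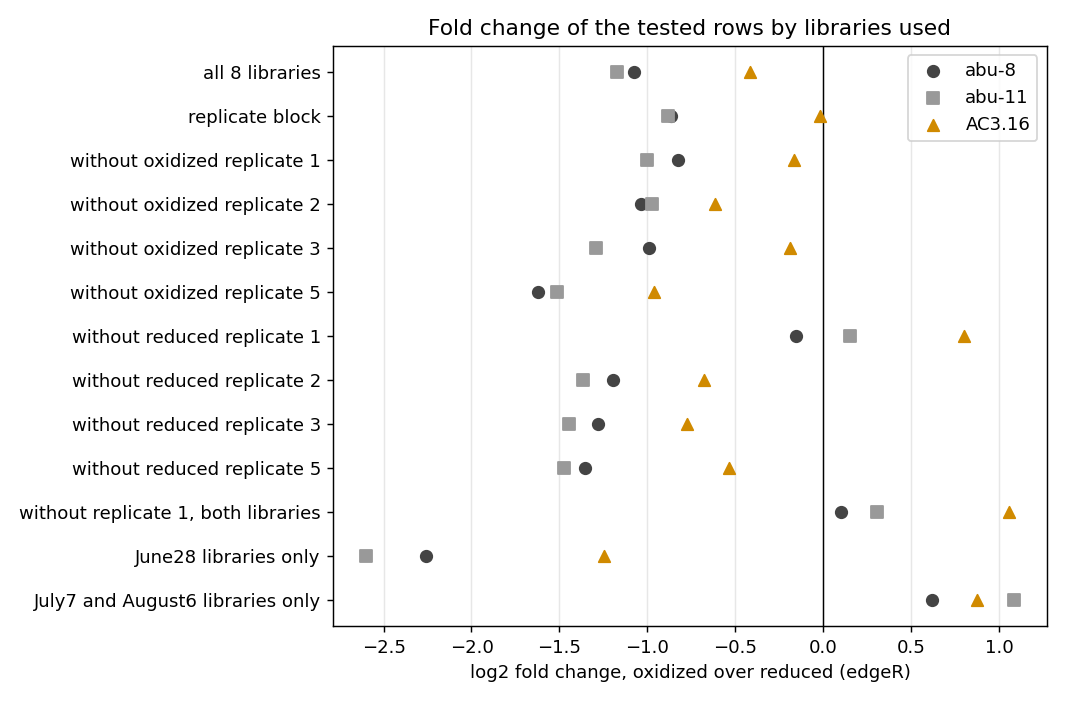
Log2 fold change of oxidized over reduced (horizontal axis, edgeR) for abu-8, abu-11 and AC3.16 with all 8 libraries and with the libraries named at left. Values lie below 0 with all libraries, and abu-11 and AC3.16 pass 0 without reduced replicate 1.

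The make-up of the family's counts was led by the same 2 rows in every library. The abu-8 row took 44.3% to 63.5% of the coding counts in every library, with a median of 53.7%, and abu-11 took 20.6% to 42.6%, with a median of 28.0%. In reduced replicate 1, abu-7 took 6.90% of 536 counts (95% Wilson interval 5.05 to 9.37), against 1.56% of 641 counts in the other 7 libraries together (0.850 to 2.85), though reduced replicate 5 alone had 5.77% of its 52 counts. The share of abu-8 was 44.6% there (40.4 to 48.8), against 55.7% in the other 7 (51.8 to 59.5). Shares of pqn-5 were 8.58% (6.50 to 11.3) against 7.64% (5.83 to 9.96), of abu-10 7.28% (5.37 to 9.79) against 6.40% (4.75 to 8.56), and of abu-11 31.0% (27.2 to 35.01) against 28.4% (25.04 to 32.004). The intervals of abu-7 and abu-8 did not overlap those of the pool of 7 libraries, while those of pqn-5, abu-10 and abu-11 did. Within that pool oxidized replicate 3 came as low for abu-8, at 44.3%, and oxidized replicate 1 was slightly higher, at 46.8%. These intervals cover counting error only, and the library was picked out for its high level.

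**Figure D3:**
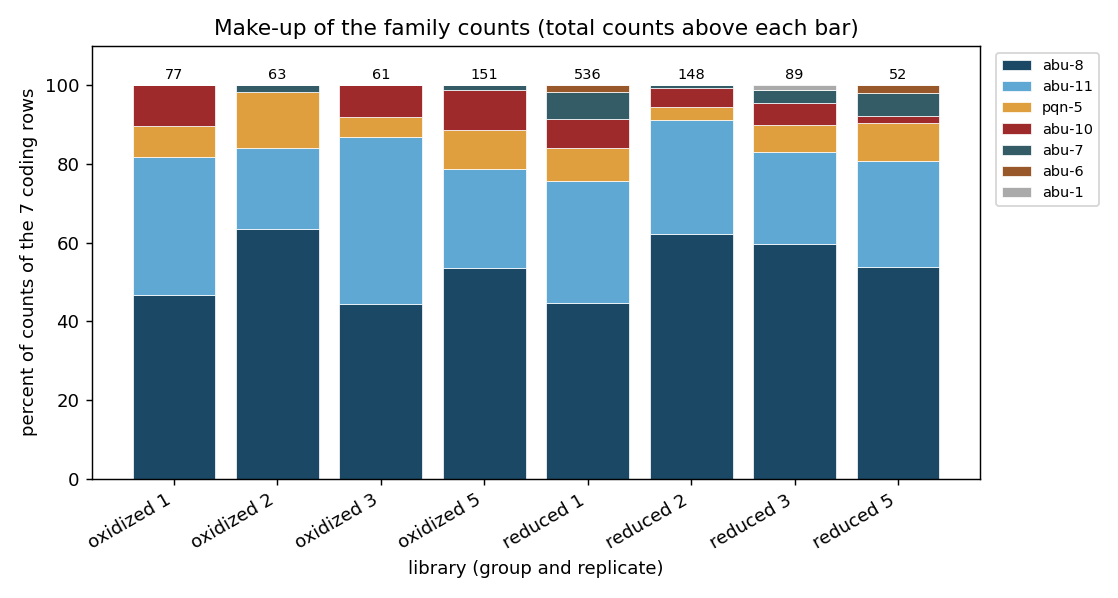
Share of each coding row in the summed counts of the 7 coding rows (vertical axis, percent) for each library, with the summed counts above each bar. The abu-8 and abu-11 rows make up the larger part of every bar, and the abu-7 part reaches 6.90% in reduced replicate 1.

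The AC3.16 row, a non-coding gene of 150 bases on chromosome V at 10380725 to 10380874 (plus strand), held more counts than the 7 coding rows together. All of its bases lie inside an exon of abu-1, which is on the minus strand. It had 2421 counts in the 8 libraries, against 1 for abu-1, a ratio of count density per exon base of 22677 with a 95% counting interval of 4066 to 896047. Per the labels the libraries kept the strand, but no source used here gives the strand setting of the counting. Whether the reads counted for AC3.16 came from its own strand or from that of abu-1 therefore cannot be told. The strand setting bears on the level of every coding row given here, also of rows that share no base with another gene, and was not tested.

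Levels of AC3.16 were 159, 479.7, 116 and 644 CPM in oxidized replicates 1, 2, 3 and 5, against 1274, 182, 117 and 294 CPM in reduced replicates. Here too reduced replicate 1 was highest and oxidized replicate 5 second, at a ratio of 1.98. The mean was 349.5 ± 255 CPM in oxidized and 467 ± 543 CPM in reduced worms (SD, n = 4 each), and the log2 fold change was −0.42 (SE 0.59, edgeR adjusted p = 0.999). It became 0.80 without reduced replicate 1. The number of AC3.16 counts per coding family count ran from 0.921 in reduced replicate 3 to 5.22 in oxidized replicate 2.

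A second non-coding row, C03A7.15, was looked at after its values were seen. It spans chromosome V 5160620 to 5160766 on the plus strand and shares 89 of its 147 bases with the 3′ end of abu-6 on the other strand. It held 1054 counts, against 10 for abu-6. Levels were 56.0, 232, 53.2 and 192 CPM in oxidized replicates 1, 2, 3 and 5, against 507, 162, 106 and 94.4 CPM in reduced replicates, and the log2 fold change was −0.72 (SE 0.54, edgeR adjusted p = 0.999). Reduced replicate 1 was again the highest library, as it was for abu-6.

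**Figure D4:**
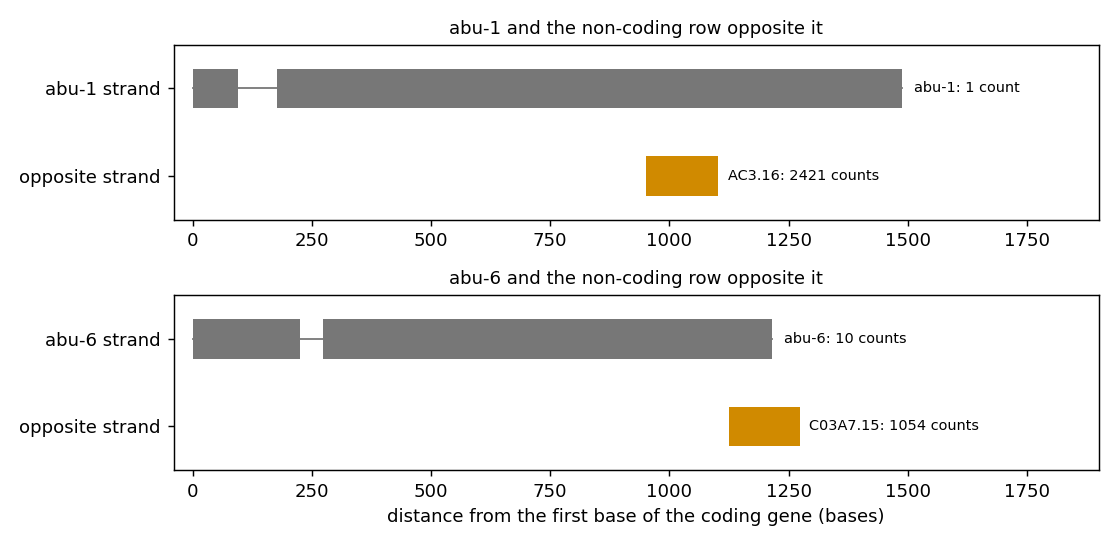
Exons of abu-1 and abu-6 (grey) and the non-coding rows opposite them (orange), drawn by distance in bases from the first base of the coding gene, with the counts of each row over the 8 libraries. AC3.16, inside the second exon of abu-1, held 2421 counts against 1, and C03A7.15, across the end of abu-6, held 1054 against 10.

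Correlations between coding members across libraries were lower without reduced replicate 1. Over the 10 pairs among abu-7, abu-8, abu-10, abu-11 and pqn-5, Pearson's r of log2(CPM + 0.5) over 8 libraries ran from 0.40 to 0.90, with a median of 0.78. Without reduced replicate 1 it ran from −0.14 to 0.84, with a median of 0.44. The pair abu-11 and abu-10 kept 0.84, and abu-8 and abu-11 had 0.70. AC3.16 lay closest to pqn-5, at 0.91 over 8 libraries and 0.82 over 7, and had −0.036 with abu-11 over the 7. These values are descriptions, and all pairs rest on the same libraries at low depth.

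Over 8 libraries the row whose pattern was most like that of abu-8 and abu-11 was tnt-4, a troponin T gene of pharyngeal muscle. Likeness was Pearson's r of log2(CPM + 0.5) with the mean profile of abu-8 and abu-11 over 8 libraries, where the median of 2312 rows was 0.016 and 4 rows exceeded 0.9. The tnt-4 row had r = 0.95, and 0.86 without reduced replicate 1, where it ranked 6 and sca-1 ranked 5. It held 119.5, 146, 135 and 249 CPM in oxidized replicates 1, 2, 3 and 5, against 423, 225, 133 and 135 CPM in reduced replicates. Next came sca-1, which encodes a SERCA-type calcium pump (0.92, and 0.86 over 7 libraries) and whose span holds an annotated antisense gene, and the cuticle collagen col-125 (0.91 and 0.69). The rows tofu-5, T21B6.3 and lsm-4 followed at 0.90, 0.89 and 0.88, and at 0.68, 0.69 and 0.68 over 7 libraries; with col-125 they ranked 34 to 41 there.

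**Figure D5:**
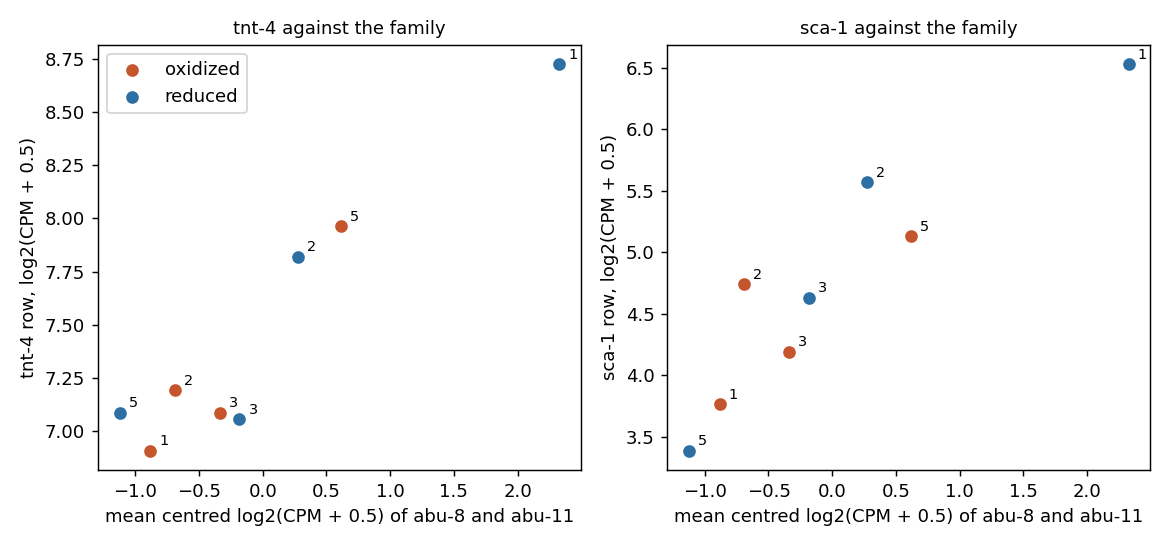
Mean centred log2(CPM + 0.5) of abu-8 and abu-11 (horizontal axis) against log2(CPM + 0.5) of tnt-4 (left) and sca-1 (right), with replicate numbers beside the points. Reduced replicate 1 lies at the upper right in both panels, and the other 7 libraries alone have r = 0.86 in each.

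The other genes of the pharynx were read from lists, of which 30 genes were in the table and 5 were tested. In the pharyngeal muscle list the tested rows were tnt-4, tni-4 (a troponin I), myo-2 and myo-5 (myosin heavy chains), and 0 of 4 were called. Of all 2315 tested rows edgeR called 0.216%. The tni-4 row stood at 47.0 ± 20.2 CPM in oxidized and 81.6 ± 54.4 CPM in reduced worms, and myo-2 at 22.2 ± 13.98 and 46.0 ± 64.4 CPM (SD, n = 4 each). The median log2 fold change of those 4 rows was −0.88, against −0.048 over all rows tested, with reduced replicate 1 included. A median without that library was not taken. Reduced replicate 1 was the highest library for myo-2, at 141.4 CPM, with oxidized replicate 5 next at 39.01 CPM. It was also highest for myo-5 (72.78 CPM) and tnt-4 (422.9 CPM), with oxidized replicate 5 next at 27.01 and 249.05 CPM. The tni-4 row differed, with 60.42 CPM in reduced replicate 1 and 149.2 CPM in reduced replicate 2. In the pharyngeal cuticle list only idpc-1 was tested, at 20.3 ± 8.71 CPM in oxidized and 14.7 ± 17.2 CPM in reduced worms. The chs-2 row, beside abu-11, had 27 counts in all, and its level was highest in reduced replicate 1, at 16.5 CPM against 0 to 6.54 elsewhere. Of the 13 pharyngeal cuticle rows with a count, 5 were highest in that library, while pgp-14, idpc-3 and idpp-1 were highest in oxidized replicate 5. Of all 2315 tested rows 18% were highest in reduced replicate 1, but most of these 13 were too low to be tested. In the pharyngeal gland list 0 rows could be tested.

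Summed marker rows of most tissues were also above the median of the other 7 libraries in reduced replicate 1. It was the highest library for pharyngeal muscle and cuticle, body wall muscle, intestine and neuron, and the second for pharyngeal gland and epidermis. Row by row it was highest in 4 of the 8 pharyngeal muscle rows with a count and 5 of 13 in pharyngeal cuticle. Those shares were 6 of 8 in body wall muscle, 3 of 8 in intestine and 2 of 5 in neuron. They were 2 of 6 in epidermis and 0 of 6 in pharyngeal gland. Of all 2315 tested rows the share was 18%, which does not cover marker rows too low to be tested. Among pharyngeal muscle rows tni-4 was highest in reduced replicate 2, at 149 CPM, while tnt-4 held 423 CPM in reduced replicate 1. Summed over the list, pharyngeal muscle rows reached 798 CPM there, against 202 to 381 CPM in oxidized and 189 to 460 CPM in the other reduced libraries, a ratio of 3.39 to the median of the other 7. That ratio was 3.164 for pharyngeal cuticle rows, 2.17 for neuron, 2.06 for pharyngeal gland, 2.03 for epidermis, 1.96 for body wall muscle, 1.87 for intestine and 0.915 for germ line. For the sum of the 7 coding abu rows it was 7.48. Among tested rows, a ratio as high as that of abu-11 (7.61) was reached by 8 of 2315 (0.346%), as that of AC3.16 (7.02) by 10 (0.432%) and as that of abu-8 (5.63) by 26 (1.12%). The part of these markers in the family's level was not tested. In RNA from whole worms, a larger share of RNA from the pharynx and a higher level within it cannot be told apart. Pharyngeal markers at 0 in every library were idpa-2, idpp-2 and hlh-6.

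Short marker lists of tissues outside the pharynx also held 0 called rows, in edgeR with and without the block, where 0.648% and 0.216% of all tested rows were called. Over all 2315 tested rows 1254 lay below 0 and 1061 above. All 8 tested body wall muscle rows lay below 0, with a median log2 fold change of −0.67, led by myo-3, a myosin heavy chain, at −1.32 (SE 0.60, edgeR adjusted p = 0.915). The troponin tnt-2 stood at −0.85 (SE 0.42) and the myosin unc-54 at −0.76 (SE 0.43). All 3 tested epidermis rows, of cuticle collagens, lay above 0: rol-6 at 1.39 (SE 0.44, edgeR adjusted p = 0.462), dpy-7 at 2.28 (SE 0.82) and dpy-13 at 0.44 (SE 0.38). Cuticle collagens outside this list went both ways, such as col-147 at −1.67 (SE 0.45) and sqt-1 at 1.58 (SE 0.40). Of 6 tested intestine rows 2 lay above 0, namely the cathepsin B-like proteases cpr-6 at 1.48 (SE 0.66) and cpr-1 at 0.91 (SE 0.69), while the actin act-5 stood at −0.49 (SE 0.49). The neuron rows snb-1 and unc-119 stood at −0.43 (SE 0.63) and −0.35 (SE 0.76), and 0 germ line rows could be tested.

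The other abu and pqn rows differed among themselves in pattern. Of 63 such rows, 49 had a count, 14 were tested and 0 were called in edgeR, with or without the block. Of all 2315 tested rows 0.648% and 0.216% were. Their median log2 fold change was −0.15, and 4 of the 14 were highest in reduced replicate 1, against 18% of all 2315 tested rows. Of the 14 tested rows, pqn-74 came closest to the family (r = 0.82 with abu-8 and abu-11, and 0.55 without reduced replicate 1), with 44.8, 52.5, 66.1 and 147 CPM in oxidized replicates, against 324, 56.3, 17.1 and 31.0 CPM in reduced replicates. The pqn-71 row, too low to be tested, had r = 0.87 and 0.58 without reduced replicate 1, which held 71.4 CPM, against 0 to 4.84 CPM in the other 7 libraries. The abu-14 row, of a gene needed for the pharyngeal cuticle, went less with it (r = 0.55): it stood at 96.0 ± 26.95 CPM in oxidized and 57.5 ± 64.6 CPM in reduced worms, and the fold on the log2 scale was 0.77 (SE 0.57, edgeR adjusted p = 0.999). These 3 rows were named after their values were seen. By the smallest p, pqn-96 stood at 2.09 on the log2 scale (SE 0.74, edgeR adjusted p = 0.679), pqn-94 −1.05 (SE 0.50, adjusted p = 0.920) and pqn-83 −1.23 (SE 0.70, adjusted p = 0.999). The rows of abu-2, abu-5 and abu-9 had 0 counts in every library.

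Rows of the unfolded protein response, the pathway behind the family's name, and of the moult also gave 0 calls. Of all 2315 tested rows edgeR called 0.216%. Of 18 unfolded protein response genes 9 were tested: 3 lay above 0 and 6 below, with a median log2 fold change of −0.11. The 3 with the smallest p were enpl-1, a chaperone of the endoplasmic reticulum, at −0.73 (SE 0.59), and the protein disulfide isomerases pdi-3 at 0.54 (SE 0.64) and pdi-6 at −0.50 (SE 0.62), each with an edgeR adjusted p = 0.999. In reduced replicate 1 the summed level of this list was 1.47 times the median of the other 7 libraries. Of 21 moulting genes 5 were tested, and all 5 lay above 0, as did 1061 of all 2315 tested rows. The qua-1 row, of a hedgehog-related protein needed for moulting, stood at 1.48 on the log2 scale (SE 0.68, edgeR adjusted p = 0.915), against 0.80 for lin-42 and 0.70 for mlt-8. The summed moulting level in reduced replicate 1 was 1.22 times the median of the other 7.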

How the data were processed

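The authors deposited raw counts per gene row as 1 table, with no normalization recorded. Per the labels' protocols, a stranded kit was used on RNA depleted of ribosomal RNA, with paired reads of 50 nt, although the molecule field says polyA RNA. Tools listed in the submitters' processing notes are Cuffdiff 2.1.1, Cufflinks, Bowtie2 2.2.1, TopHat2 2.0.13 and FastQC 0.11.3. Build, annotation and counting settings: not given in the sources used. A further 2 columns match no sample and were not used.

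Of the row names, 44933 matched 1 gene in Ensembl's WBcel235 annotation and 528 did not. Groups follow the redox characteristic. After filterByExpr and TMM scaling, edgeR 4.0.16 was run in R 4.3.3 (robust glmQLFit with legacy = FALSE, then glmQLFTest), with Benjamini-Hochberg adjustment over all rows and a threshold of 0.05; the SE is the size of the log2 fold change divided by the square root of F. DESeq2 1.42.0 and limma 3.58.1 (voom) ran on the same rows. The common dispersion of 0.339 stands for a 58.3% coefficient of variation. The log scale used 0.5 CPM as pseudocount.

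Members and lists were chosen with earlier results of these data known. All 8 members are named, with up to 3 rows of smallest p per list and the 6 rows most like the family. Titles give libraries of 1 number the same date, which was not stated to be a shared batch and was read as pairing them; their deviations from the group means correlated at 0.052, −0.11, 0.092 and 0.256. The labels call the libraries biological replicates without naming cultures, so p-values measure the spread between these samples. CPM used TMM-scaled sizes.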

Additional observations from a re-analysis of the deposited data

Results flagged for a closer look

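A library far from its group was looked for in 18 groups of 4 values and found in 9. A rate of 1 in 20 would give about 0.9, but it assumes normally spread values, and rows of few counts such as abu-1 do not meet this. The groups are not independent, since 8 of the 9 found turn on the same library. They also include a sum of the members, and C03A7.15, looked at after its values were seen. No conclusion on chance is drawn from these numbers. In reduced replicate 1, the sum of the 7 coding rows was 736 CPM, with the next reduced library at 154. The rows of abu-11 (228 CPM, next 44.9), pqn-5 (63.2, next 8.56), abu-10 (53.6, next 7.30), abu-7 (50.8, next 4.28) and abu-6 (12.4, next 1.24) stood apart there. So did the non-coding rows AC3.16 (1274 CPM, next 294) and C03A7.15 (507, next 162). The abu-8 row did not pass this check. Nor did the sum of the 7 coding rows in oxidized replicate 5, at 227 CPM with the next oxidized library at 98.4. The gap, as a share of the range, was 0.8289 in that case, against a threshold of 0.829. The abu-1 row was singled out in reduced replicate 3 at 1.43 CPM, which is a single count and below the floor.

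Effects of redox state differed in sign between dates for abu-11 and abu-10: both June28 pairs were lower in oxidized worms and both later pairs higher. Replicate 5, whose labels conflict, carried the later dates: its pair stood at 1.69 for abu-11 and 3.72 for abu-10, against 0.48 and 0.17 for replicate 3. The mean pair log2 difference of the later dates minus that of June28 was 3.27 for abu-11 and 5.31 for abu-10. The abu-10 value is no measure of size, since it depends on the pseudocount: oxidized replicate 2 had 0 counts against 7 in reduced replicate 2, replicate 3 had 5 in each library, and reduced replicate 5 had 1 count. A date by redox interaction, added after seeing the data, was 3.64 for abu-11, 2.83 for abu-8 and 2.08 for AC3.16 (edgeR adjusted p = 0.997 for each over 2315 rows, of which 0 were called; unadjusted p = 0.0076, 0.0134 and 0.062). The share of all rows with an unadjusted p as low was not taken, and for abu-10 the difference was not tested.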

How the results depend on the processing

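Under each of 22 alternatives 0 rows were called among the family, the other abu and pqn rows, the pharyngeal, the unfolded protein response and the moulting rows. Few rows were called at all, from 0.0757% without a filter to 0.648% with the replicate block, where that share was taken. At such shares, lists this short would mostly hold 0 called rows. Adjusted p for the 3 tested members ran from 0.366 to 0.9999 over these. Direction held under 18 alternatives for AC3.16 and abu-11 and 19 for abu-8. With the replicate block the log2 fold changes were −0.02 for AC3.16, −0.86 for abu-8 and −0.89 for abu-11, and the block changed no call of these lists. Leaving out single libraries gave −0.96 to 0.80 for AC3.16, −1.62 to −0.16 for abu-8, −1.51 to 0.15 for abu-11, and 0.323 to 1.06 for the ratio of the summed coding rows. Without both libraries of replicate 1 (chosen after seeing the data) the log2 fold changes of AC3.16, abu-8 and abu-11 were 1.06, 0.098 and 0.31, and the ratio 1.20; with the replicate block as well, 0.95, 0.097 and 0.30. With July7 and August6 libraries only they were 0.87, 0.62 and 1.08, and the ratio 1.70. With the labels of replicate 5 exchanged the ratio was 0.263, and without replicate 5 it was 0.258. The cause of these reversals was not tested. The search of promoters for motifs was not run, and a density of AC3.16 over bases not shared with abu-1 could not be given, as it has none; that of abu-1 was 0.797 counts per kilobase, against 0.712 over all its exons. Depth limits abu-1, abu-6 and abu-7, which exceeded 3 counts in at most 1 library each.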
